A study of Homo sapiens with 12 samples.

Results

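Glutathione synthesis and cystine import were followed through 9 genes in SH-SY5Y cells, a human neuroblastoma cell line. The genes were chosen by symbol and matched to their Ensembl identifiers in the deposited table. They are 9 of 60710 identifiers in that table, and all 9 passed the filter on low counts, which left 16366 genes for testing. RNA-seq libraries were made from cells in 6-well plates under 4 conditions, with 3 libraries in each. The cells received HPPE, zinc protoporphyrin or tin protoporphyrin at 5 µM for 5 h, each added from a stock in 10 µL of DMSO to 2 mL of medium. The control wells received 10 µL of DMSO alone, so every group carries the solvent. The compounds are named in the title of the study as NRF2 activators, and the labels do not spell out HPPE. The protoporphyrins share 1 ring system and differ in the metal that it holds. The design covers 1 cell line, 1 dose and 1 time, and RNA was the only readout.

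Glutathione is the main small thiol of the cell, and neurons are known for their sensitivity to its loss. Glutamate-cysteine ligase joins glutamate to cysteine in the rate-limiting step. It has a catalytic subunit, GCLC, and a modifier subunit, GCLM, which raises its efficiency. GSS, glutathione synthetase, then adds glycine. Cysteine is the scarce building block, and much of it enters as cystine through an antiporter. The transport subunit of this antiporter is SLC7A11, also called xCT, and its chaperone subunit is SLC3A2. GSR, glutathione reductase, returns oxidised glutathione to its reduced form at the cost of NADPH. GPX4 reduces lipid hydroperoxides in membranes with glutathione and so restrains ferroptosis, GPX1 reduces hydrogen peroxide, and GSTP1 couples glutathione to electrophiles. Many of these genes are textbook targets of NRF2, a transcription factor that is freed from its inhibitor KEAP1 by electrophiles and binds antioxidant response elements with small MAF proteins. SLC7A11 is also a known target of ATF4, the effector of the amino acid response.

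The libraries differed in depth and along a common axis. Total counts ran from 1337028 to 9145399. Zinc protoporphyrin replicate 1, with 1337028 counts, and DMSO replicate 3, with 1514595, were shallow, and the next lowest library held 3141853. A count of 3, the limit that a count of 0 allows, was worth 0.328 counts per 1000000 counts (CPM) in the deepest library and 2.24 CPM in the shallowest. HPPE replicates 2 and 3 were the most alike of the pairs within a group. Their chi-square per degree of freedom was 1.11, against 1.49 to 17.3 in the other 11 pairs. A value of 1 is what counting noise alone would give, so these 2 libraries may not be independent. They were kept as separate libraries, and summing them as 1 library was an alternative. The first principal component of the deviations from the group means took 52.7% of their variance over 10972 genes, and scores on it are used below as the library axis. Separately, deviations from each gene's mean over all 12 libraries, which include differences between groups, were set against exon length. Across genes they correlated with it at a Spearman's rho of -0.47 to 0.55, depending on the library. GATA2, DBH and STMN2, markers of sympathetic neuroblasts, were present in all 12 libraries at 318 CPM or more, while TH did not exceed 0.25 CPM. Markers of immune cells summed to 0.317 CPM at most. The summed level of 7 mesenchymal markers, genes that some neuroblastoma cells also express, was 85.0 to 93.0 CPM under DMSO, 101 to 102 CPM under HPPE, 100.1 to 108 CPM under zinc and 107 to 111 CPM under tin. SNAI2 was called higher under HPPE and COL1A2 and DCN under each protoporphyrin; their part in the results below was not tested. In these bulk samples, more cells expressing a gene and more RNA per cell cannot be told apart.

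Promoter windows from RefSeq (GRCh38.p14), from 250 bases before to 50 bases after a start site, were found for 6 of the 9 genes: GCLM, GCLC, SLC3A2, GPX4, GPX1 and GSTP1. They are shown because many of the 9 genes are known NRF2 or ATF4 targets, and the genes differed in their response. The letters TGACNNNGC, the core of the antioxidant response element, were searched on both strands and occurred in 3 of these 6 genes and in 3 of their 10 windows. They occurred in 13.3% of all 35116 windows and in 16.1% of all 27305 genes. The 3 stretches follow, 5′ to 3′ along the gene, with the matching bases in capitals. The GCLM match is on the opposite strand, so it reads as the reverse complement.
GCLM: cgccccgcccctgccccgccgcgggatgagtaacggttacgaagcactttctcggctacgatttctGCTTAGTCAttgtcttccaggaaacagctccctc
SLC3A2: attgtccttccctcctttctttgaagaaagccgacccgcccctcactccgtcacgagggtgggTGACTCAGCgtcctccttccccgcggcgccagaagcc
GSTP1: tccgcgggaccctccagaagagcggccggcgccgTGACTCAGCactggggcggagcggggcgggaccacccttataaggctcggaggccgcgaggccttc

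The GCLM stretch lies at chr1:93909431-93909530 on the minus strand and its match at chr1:93909456-93909464, 34 bases before the RefSeq start. The SLC3A2 stretch is chr11:62881599-62881698 on the plus strand, and its match at chr11:62881662-62881670 begins 37 bases before a start that lies inside the longest GENCODE gene model. The GSTP1 stretch is chr11:67583712-67583811 on the plus strand, with its match at chr11:67583746-67583754, 66 bases before the RefSeq start and inside the span of the GENCODE model. The letters TGATGNAA, the core of the CCAAT-enhancer binding protein and ATF response element, occurred on either strand in 1 of the 6 genes, against 3.62% of all windows and 4.46% of all genes. That match was in SLC3A2 at chr11:62881736-62881743, again as the reverse complement, 37 bases after the start.
SLC3A2: aggactccTTACATCAgctcc

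The windows of GCLC, GPX4 and GPX1 held neither set of letters. A match shows only that the letters are there, and a window without one says nothing about sequence outside it.

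Under DMSO the 9 genes covered a wide range of levels, compared per kilobase of exon (CPM divided by the exon length in GENCODE 29). GSTP1 was the highest at 119 ± 23.8 CPM per kb (SD, n = 3), followed by GPX1 at 54.7 ± 13.5 and GPX4 at 37.7 ± 8.90, whose ranges overlapped. GSR followed at 24.6 ± 0.779 CPM per kb and SLC3A2 at 11.6 ± 1.88. GSS at 7.58 ± 1.70, GCLM at 4.86 ± 0.144 and GCLC at 4.57 ± 0.640 CPM per kb came next, and the last pair overlapped. SLC7A11 was the lowest of the 9 at 0.849 ± 0.186 CPM per kb. The genes that use glutathione thus stood above the synthesis genes, and SLC7A11, the transport subunit, stood below both, while its partner SLC3A2 stood above the synthesis genes. Under HPPE, GCLM reached 29 ± 0.85 CPM per kb, above SLC3A2 at 16.1, and SLC7A11 reached 9.65 ± 0.667, above GCLC at 7.0.

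**Figure D1:**
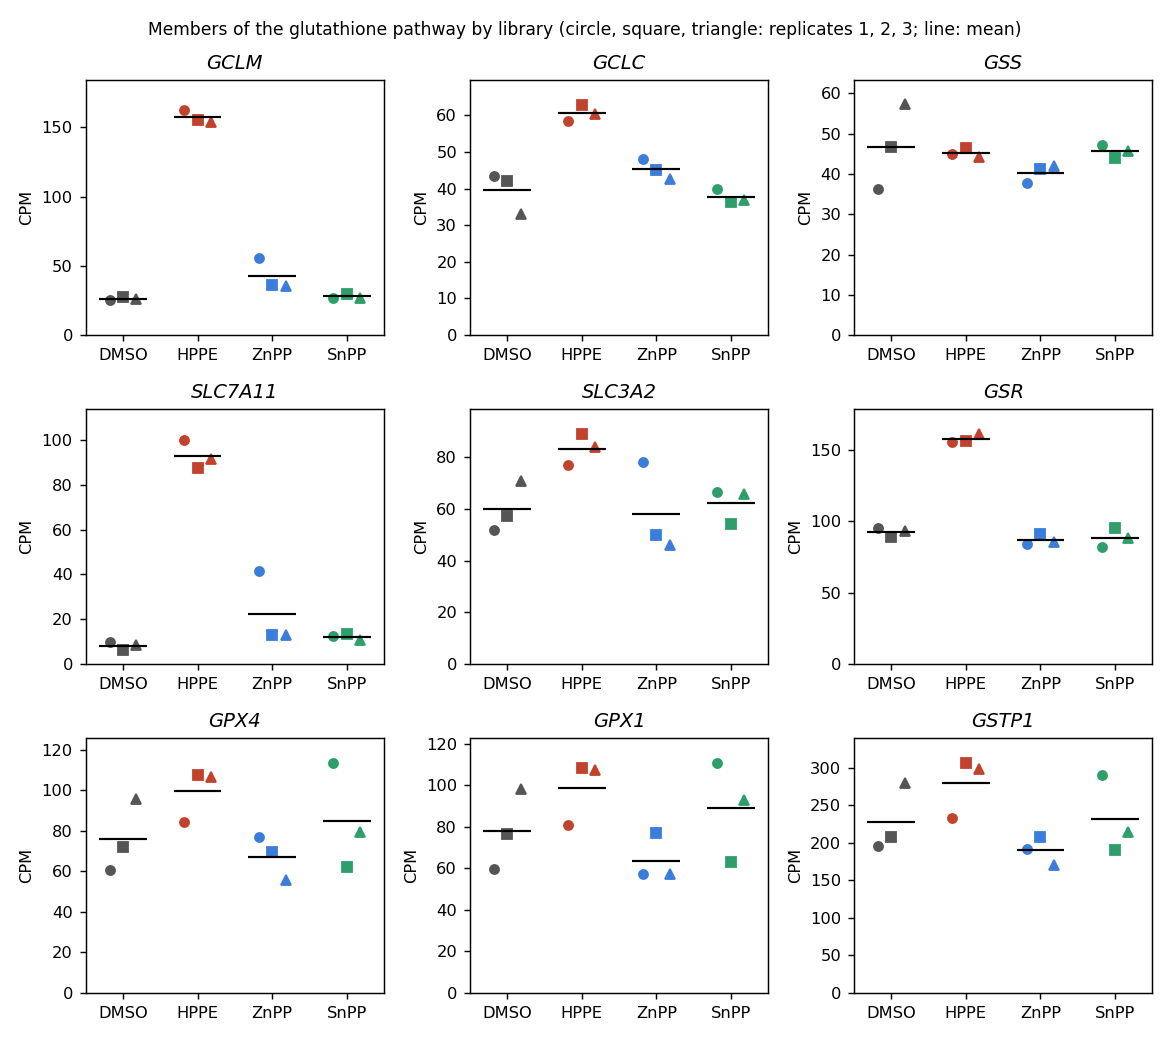
CPM of the 9 genes in each of the 12 libraries, on linear axes that start at 0; circles, squares and triangles are replicates 1, 2 and 3 of a group, and the line is the group mean. GCLM, GCLC, GSR and SLC7A11 stood apart under HPPE, and GCLM and SLC7A11 were highest among the zinc protoporphyrin libraries in replicate 1.

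HPPE against DMSO asks what the compound does to this pathway by 5 h. Of the 9 genes, 4 rose and 0 fell at an adjusted p under 0.05, by edgeR's quasi-likelihood test with Benjamini-Hochberg adjustment over all genes tested. SLC7A11, GCLM, GSR and GCLC rose, that is the cystine carrier, both subunits of the ligase and the reductase. Over all genes 2.57% were called higher and 1.47% lower. By DESeq2 the counts were also 4 and 0, and at an unadjusted p under 0.05 they were 6 and 0. Of all 16366 genes tested, 2895 had an unadjusted p under 0.05 in either direction. The median log2 difference was 0.52 over the 9 genes and 0.02 over all genes tested. All p-values measure the spread between libraries, since the labels do not say whether replicates came from separate cultures. The comparisons of the compounds with DMSO share the same 3 control libraries.

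GCLM stood at 25.7, 27.2 and 26.2 CPM under DMSO and at 163, 156 and 154 CPM under HPPE. The groups did not overlap, and each was tight. The difference was 2.58 ± 0.12 on the log2 scale (SE), 5.97-fold with a 95% interval of 5.03 to 7.08 and an adjusted p of 3.65e-10. By size, GCLM ranked 16 from the top among the 16366 genes.

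GCLC, the catalytic partner, moved less. It stood at 43.4, 42.0 and 33.2 CPM under DMSO and at 58.4, 62.8 and 60.5 CPM under HPPE, without overlap. The difference was 0.57 ± 0.10 on the log2 scale, or 1.48-fold (interval 1.29 to 1.70, adjusted p = 0.00192). In GENCODE 29, GCLC shares 529 exonic bases with a long non-coding RNA on the same strand, so its counts depend on how shared reads were assigned.

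GSS showed no difference that the test could call. Its values were 36.4, 46.6 and 57.4 CPM under DMSO, the widest spread among the synthesis genes in that group, and 44.9, 46.5 and 44.3 CPM under HPPE. All HPPE values lay inside the range of the controls. The log2 difference was 0.03 ± 0.12, with an interval of -0.23 to 0.28 (adjusted p = 0.936).

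SLC7A11 had the largest fold of the 9 genes. It was read at 9.92, 6.34 and 8.30 CPM under DMSO, from 75, 48 and 13 counts, and at 100.04, 87.4 and 91.8 CPM under HPPE, from 800, 750 and 290 counts. The lowest HPPE library was far above the highest control. The log2 difference was 3.51 ± 0.27, or 11.4-fold with an interval of 7.66 to 17.0 (adjusted p = 4.01e-07), rank 10 from the top. SLC7A11-AS1, a gene on the opposite strand that overlaps 865 of its exonic bases, stood at 0 to 0.132 CPM under DMSO and 1.13 to 1.40 CPM under HPPE. Whether the counting used strand is not given in the sources used here, so reads of this pair cannot be told apart with certainty.

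SLC3A2, which pairs with SLC7A11 and with other amino acid carriers, was at 52.0, 57.2 and 70.8 CPM under DMSO and at 76.9, 88.9 and 83.9 CPM under HPPE. Every HPPE library exceeded every control. The log2 difference of 0.52 ± 0.15 (1.44-fold, interval 1.16 to 1.78) missed the threshold, at an adjusted p of 0.0528. It passed in 5 of 17 other ways of processing the data, over which its adjusted p ran from 8.10e-07 to 0.334; without DMSO replicate 3 it was 0.0237.

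GSR, the recycling enzyme, moved with little spread. It was at 95.1, 89.4 and 93.2 CPM under DMSO and at 156, 157 and 161 CPM under HPPE. The groups did not overlap, and the difference was 0.77 ± 0.08 on the log2 scale, 1.71-fold with an interval of 1.53 to 1.91 (adjusted p = 7.56e-06).

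The 3 genes that spend glutathione did not pass the test. GPX4 was at 60.5, 72.1 and 95.7 CPM under DMSO and 84.3, 107 and 107 CPM under HPPE, a log2 difference of 0.45 ± 0.19 (interval 0.04 to 0.85, adjusted p = 0.233). GPX1 was at 59.8, 76.4 and 98.3 CPM and then 81.2, 108 and 107 CPM, a log2 difference of 0.40 ± 0.20 (interval -0.01 to 0.81, adjusted p = 0.300). GSTP1 was at 196, 208 and 280 CPM and then 233, 307 and 298 CPM, a log2 difference of 0.32 ± 0.16 (interval -0.01 to 0.64, adjusted p = 0.304). In all 3 genes DMSO replicate 3 was the highest control and HPPE replicate 1 the lowest treated library, and the groups overlapped. GPX1 is listed in GENCODE 29 as a polymorphic pseudogene, and its processed copy GPX1P1 was read at 0 to 1.28 CPM, so reads shared with copies are a minor uncertainty there.

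**Figure D2:**
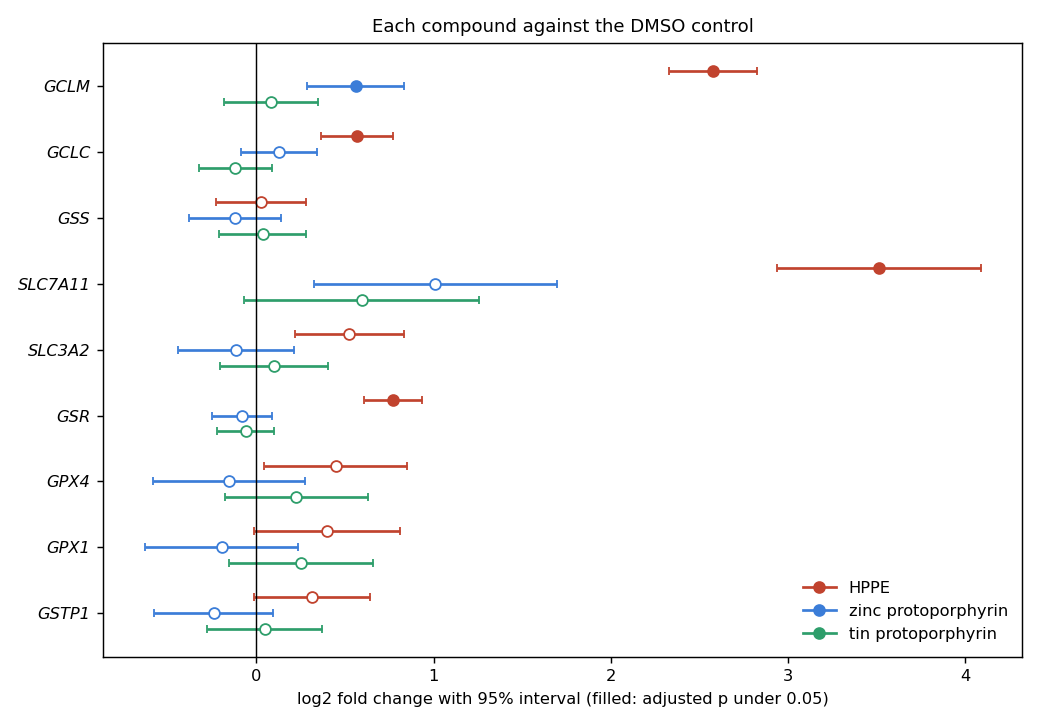
Log2 difference from DMSO for the 9 genes under each compound, with 95% intervals from edgeR's quasi-likelihood fit; filled points have an adjusted p under 0.05. HPPE has 4 filled points, from GCLC at 0.57 to SLC7A11 at 3.51, zinc protoporphyrin has GCLM at 0.56, and tin protoporphyrin has none.

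Zinc protoporphyrin against DMSO moved 1 of the 9 genes. GCLM rose, and 0 genes fell; over all genes 1.84% were called higher and 0.415% lower. At an unadjusted p under 0.05, 2 of the 9 were higher and 0 lower by edgeR, and by DESeq2 1 was called higher and 0 lower. By edgeR, 3051 of all 16366 genes had an unadjusted p under 0.05 in either direction. The median log2 difference was -0.11 over the 9 genes. GCLM was at 55.7, 36.4 and 35.1 CPM under zinc protoporphyrin, above the 25.7 to 27.2 CPM of the controls. Replicate 1, the library with the fewest reads, stood well above the other two. The log2 difference was 0.56 ± 0.13, 1.48-fold with an interval of 1.22 to 1.78 (adjusted p = 0.0311). The direction held throughout, but the call was lost in 7 of 16 other ways of processing the data, in which the adjusted p ran from 7.93e-05 to 0.127. Those 7 included leaving out DMSO replicate 1 (0.0920) or 2 (0.127), zinc replicate 2 (0.0518) or 3 (0.0552), or both shallow libraries (0.0501). Without zinc replicate 1 the log2 difference was 0.44, and it was still called (adjusted p = 0.0334).

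SLC7A11 rested more heavily on the same library. It was at 41.4, 12.8 and 12.8 CPM under zinc protoporphyrin, from 55, 98 and 106 counts, and each value lay above the control maximum of 9.92 CPM. The log2 difference of 1.01 ± 0.33 (interval 0.32 to 1.70) did not pass the test, at an adjusted p of 0.112. Without replicate 1 it fell to 0.65 (adjusted p = 0.0925), and leaving out no single library of either group brought it past the threshold. SLC3A2 was also highest in that library, at 78.3 against 49.9 and 46.2 CPM. CHAC1, a glutathione-degrading enzyme and a known target of ATF4, stood there at 12 against 6.15 and 3.49 CPM. ATF4 itself stood there at 87.3 against 56.5 and 51.5 CPM. The DMSO libraries had CHAC1 at 4.10, 5.81 and 3.83 CPM and ATF4 at 63.2, 83.6 and 120 CPM. The 87.3 CPM of ATF4 thus lay within the control range. In zinc replicate 1 a count of 3 was worth 2.24 CPM, so CHAC1 rested on few counts. CHAC1 and ATF4 were looked at in this library after the values of SLC7A11 were seen, and their part in it was not tested.

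The other genes did not pass the test under zinc protoporphyrin. GCLC was at 48.2, 45.1 and 42.7 CPM, overlapping the controls, with a log2 difference of 0.13 ± 0.10 (adjusted p = 0.580). GSS was at 37.6, 41.3 and 42.0 CPM (-0.12 ± 0.12, adjusted p = 0.632). GSR at 84.3, 90.9 and 85.9 CPM differed by -0.08 ± 0.08, with an interval of -0.25 to 0.09 (adjusted p = 0.627). That interval does not reach the 0.77 seen under HPPE. SLC3A2 differed by -0.11 ± 0.15, GPX4 by -0.16 ± 0.20, GPX1 by -0.20 ± 0.20 and GSTP1 by -0.24 ± 0.16, with adjusted p-values of 0.722, 0.713, 0.636 and 0.435. GPX4 stood at 76.8, 69.3 and 55.7 CPM, GPX1 at 57.2, 77.1 and 57.1 CPM and GSTP1 at 191, 207 and 171 CPM.

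Tin protoporphyrin against DMSO gave 0 called genes of the 9 by edgeR and 0 by DESeq2, and 0 at an unadjusted p under 0.05. Over all genes 1.9% were called higher and 0.379% lower, and 2410 of 16366 had an unadjusted p under 0.05 in either direction. The median log2 difference of the 9 was 0.08. GCLM was at 27.0, 29.7 and 27.1 CPM, overlapping the controls; its log2 difference of 0.08 ± 0.13 had an interval of -0.18 to 0.35 (adjusted p = 0.823). SLC7A11 was at 12.4, 13.6 and 10.7 CPM, each above the highest control. Its log2 difference of 0.59 ± 0.31 had an interval of -0.07 to 1.26 (adjusted p = 0.400), so a doubling was within reach of these data.

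GCLC at 40.0, 36.2 and 36.9 CPM, GSS at 47.2, 43.9 and 45.8 CPM and GSR at 82.0, 95.6 and 88.4 CPM lay within or across the control ranges under tin, with log2 differences of -0.12 ± 0.10, 0.03 ± 0.12 and -0.06 ± 0.08. SLC3A2 at 66.3, 54.1 and 65.8 CPM differed by 0.10 ± 0.14. GPX4 was at 113, 62.1 and 79.5 CPM, GPX1 at 111, 63.2 and 93.1 CPM and GSTP1 at 290.0, 190 and 214 CPM. These 3 genes were highest in replicate 1 and lowest in replicate 2, and their log2 differences of 0.23 ± 0.19, 0.25 ± 0.19 and 0.05 ± 0.15 were within that spread. Of the 9 adjusted p-values under tin, that of SLC7A11 was the lowest.

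Ratios within each complex were followed next. They were chosen with these data known, and 3 against 3 libraries cannot give an exact p below 0.1. Per kilobase of exon, GCLM to GCLC was 0.944, 1.03 and 1.26 under DMSO and 4.44, 3.95 and 4.06 under HPPE. The mean ratio went from 1.08 ± 0.162 to 4.15 ± 0.256 (SD, n = 3), with no overlap. Under zinc it was 1.84, 1.29 and 1.31, also above every control, and under tin 1.08, 1.31 and 1.17, overlapping them. An exact two-sided permutation test gave p = 0.1 for HPPE and for zinc, and p = 0.4 for tin.

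SLC7A11 to SLC3A2 was 0.102, 0.0595 and 0.0629 under DMSO and 0.698, 0.528 and 0.588 under HPPE. The transcript of the transport subunit therefore stayed below that of its chaperone in every library, while the gap narrowed. The ratio was 0.284, 0.138 and 0.148 under zinc and 0.101, 0.135 and 0.0874 under tin. The exact permutation p was again 0.1 for HPPE and zinc, and 0.3 for tin. These are ratios of RNA, and they depend on the exon lengths used.

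**Figure D3:**
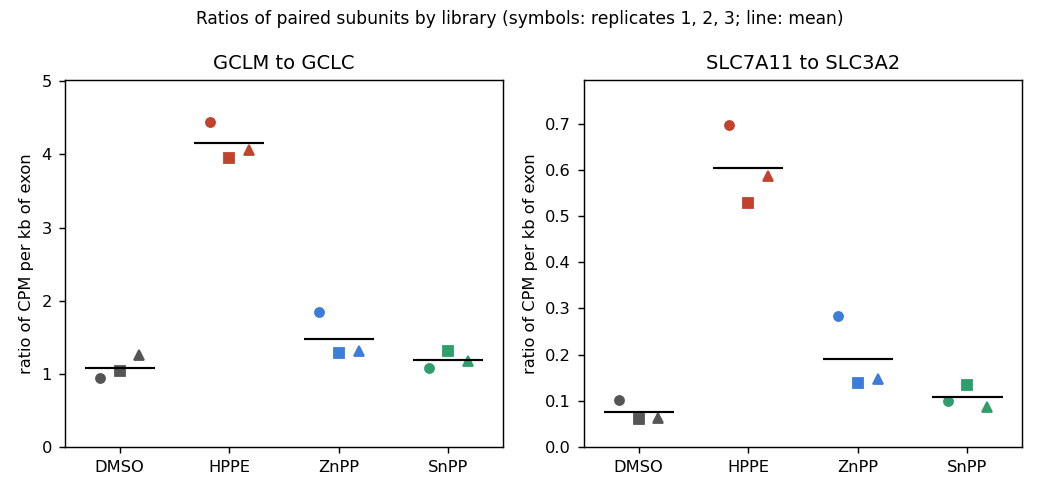
Ratio of GCLM to GCLC and of SLC7A11 to SLC3A2, per kilobase of exon, in each library; symbols are replicates 1, 2 and 3 and the line is the group mean. The HPPE libraries lie above all other libraries in both panels, at 3.95 to 4.44 and at 0.528 to 0.698.

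The compounds were then compared with each other at the matched dose and time, in 3 pairs, with p-values adjusted over all genes within a pair. HPPE against zinc protoporphyrin gave 6 genes higher and 0 lower, where 6.44% of all genes were higher and 6.26% lower. At an unadjusted p under 0.05, 8 were higher and 0 lower, and DESeq2 called 8 higher and 0 lower. That unadjusted limit was met by 5271 of all 16366 genes, in either direction. SLC7A11 was 5.66-fold higher under HPPE (interval 3.92 to 8.17, adjusted p = 1.62e-05), GCLM 4.04-fold (3.43 to 4.77, 1.49e-08) and GSR 1.80-fold (1.61 to 2.02, 5.41e-06). GCLC was 1.36-fold higher (interval 1.18 to 1.56, adjusted p = 0.0130). SLC3A2 was 1.56-fold higher (adjusted p = 0.0158) and GSTP1 1.47-fold (adjusted p = 0.0322). For SLC3A2 the groups overlapped, through zinc replicate 1. GPX4 at 1.52-fold (adjusted p = 0.0504) and GPX1 at 1.51-fold (adjusted p = 0.0545) fell just short, and GSS differed by 0.15 ± 0.12 on the log2 scale with an interval of -0.11 to 0.40. The calls of GSTP1, SLC3A2 and GCLC were lost in 7, 5 and 2 of 17 other ways of processing the data, and the count of genes called higher fell to 3 without HPPE replicate 2 or without zinc replicate 3. Leaving out either of those libraries lost the call of all 3 genes: GSTP1 had an adjusted p of 0.149 and 0.193, SLC3A2 of 0.0973 and 0.146, and GCLC of 0.0838 and 0.107. GSTP1 was also lost without HPPE replicate 3 (0.107), zinc replicate 1 (0.0629) or zinc replicate 2 (0.0510), and SLC3A2 without HPPE replicate 3 (0.0575) or zinc replicate 2 (0.0626).

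HPPE against tin protoporphyrin gave 4 genes higher and 0 lower, against 0.745% and 0.709% of all genes. DESeq2 also called 4 and 0, and 5 and 0 had an unadjusted p under 0.05, as did 2141 of all 16366 genes in either direction. SLC7A11 was 7.56-fold higher under HPPE (interval 5.36 to 10.6, adjusted p = 1.34e-06), GCLM 5.63-fold (4.80 to 6.60, 2.65e-10), GSR 1.78-fold (1.60 to 1.98, 2.81e-06) and GCLC 1.61-fold (1.40 to 1.84, 0.000432). They are the 4 genes called against DMSO. SLC3A2 differed by 0.42 ± 0.14 on the log2 scale (interval 0.14 to 0.71, adjusted p = 0.167), and passed at 0.00692 without the filter on low counts. GSS differed by -0.01 ± 0.11 (interval -0.25 to 0.23), GPX4 by 0.22 ± 0.18, GPX1 by 0.15 ± 0.18 and GSTP1 by 0.27 ± 0.15, none past the threshold.

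Zinc against tin protoporphyrin, the pair that differs in its metal, gave 0 of 9 genes in either direction by edgeR and by DESeq2. Over all genes 0.00611% were higher and 0% lower. At an unadjusted p under 0.05, 2 of the 9 were higher, GCLM and GCLC, and 1 was lower, GPX1. In either direction, 2176 of all 16366 genes met that limit. Every zinc library was above every tin library for GCLM, a log2 difference of 0.48 ± 0.12 with an interval of 0.22 to 0.73, and its adjusted p was 0.353. That difference was called without tin replicate 2 (0.51, adjusted p = 0.0257) and without the filter on low counts (0.45, adjusted p = 0.0312). GCLC did not overlap either and differed by 0.24 ± 0.10 (interval 0.04 to 0.45, adjusted p = 0.353). For SLC7A11 the difference was 0.42 ± 0.28 (interval -0.18 to 1.02, adjusted p = 0.512), and it was 0.06 without zinc replicate 1. GSR differed by -0.02 ± 0.08 with the narrowest interval of the 9, -0.18 to 0.14. GPX1 differed by -0.45 ± 0.19 (interval -0.86 to -0.04), GPX4 by -0.38 ± 0.19 (-0.79 to 0.02) and GSTP1 by -0.29 ± 0.16 (-0.62 to 0.04). GSS differed by -0.15 ± 0.12 (-0.40 to 0.09) and SLC3A2 by -0.21 ± 0.15 (-0.53 to 0.10). These intervals do not show that the metals act alike on the 9 genes.

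**Figure D4:**
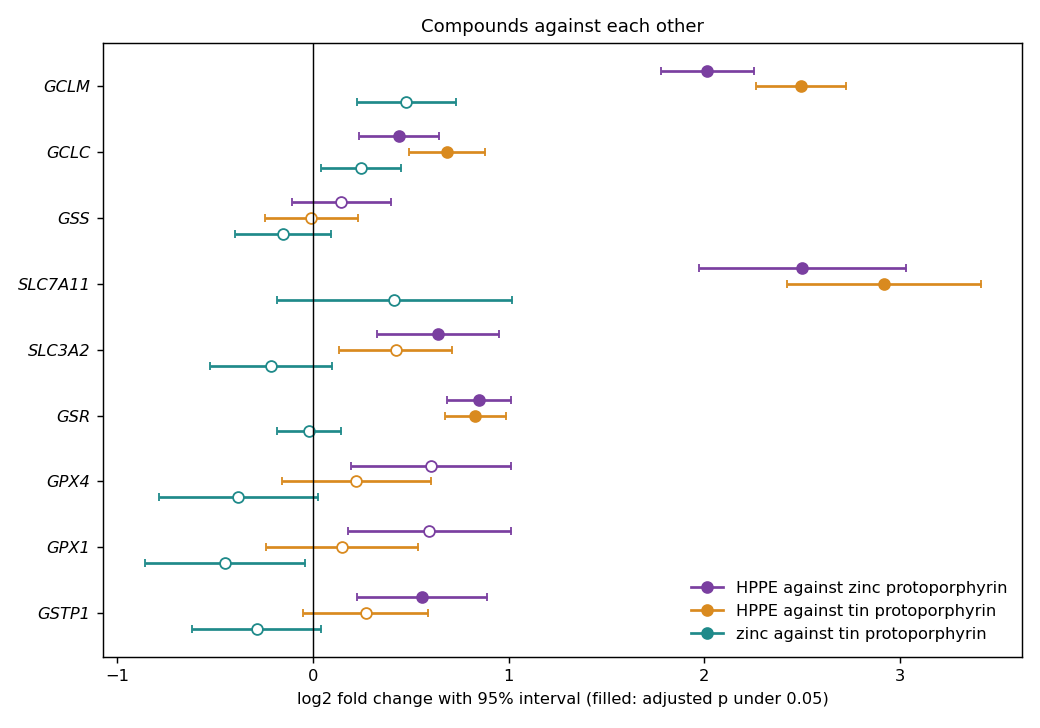
Log2 difference between compounds for the 9 genes, with 95% intervals from edgeR's quasi-likelihood fit; filled points have an adjusted p under 0.05. There are 6 filled points for HPPE against zinc, 4 for HPPE against tin and 0 for zinc against tin.

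The genes that spend glutathione followed the order of the library axis within the DMSO and tin groups. GSS and SLC3A2 followed it in both groups too, so the order was not particular to the genes that spend glutathione. GCLM, GCLC, GSR and SLC7A11 did not follow it in both. The genes that spend glutathione did not all follow it elsewhere. Zinc replicate 1, at a score of 8.90, was below replicate 2, at 1.72, for GPX1 (57.2 against 77.1 CPM) and GSTP1 (191 against 207 CPM). Under HPPE all 3 genes were slightly higher in replicate 2, at 3.32, than in replicate 3, at 5.46. On the axis, the highest score belonged to DMSO replicate 3 (23.1), followed by tin replicate 1 (14.7); the lowest were tin replicate 2 (-16.9) and DMSO replicate 1 (-16.1). GPX4, GPX1 and GSTP1 were highest in their groups in DMSO replicate 3 and tin replicate 1. Over the 12 libraries, which share these differences in depth and axis, the log2 CPM of GPX4 and GSTP1 had a Pearson's r of 0.95, GPX1 and GSTP1 of 0.93, and GPX1 and GPX4 of 0.91. With GPX4, GPX1 and GSTP1, SLC3A2 had an r of 0.61 to 0.82 and GSS of 0.56 to 0.69. GCLM and SLC7A11 had an r of 0.97, GCLM and GCLC of 0.93, GCLM and GSR of 0.92, and GCLM and GSS of -0.03. These are descriptions, with the treatment groups included.

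With the axis added to the fit as a covariate, 8 of the 9 genes were called higher under HPPE than under DMSO, in place of 4. Under the same fit 8.85% of all genes were called higher and 7.47% lower. SLC3A2 was then at 0.49 on the log2 scale (adjusted p = 8.10e-07), GPX4 at 0.37 (2.84e-05), GPX1 at 0.32 (0.00133) and GSTP1 at 0.29 (0.000142). The axis was estimated from the same libraries after the group means had been removed, so it is not an independent covariate. What the axis stands for was not tested.

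**Figure D5:**
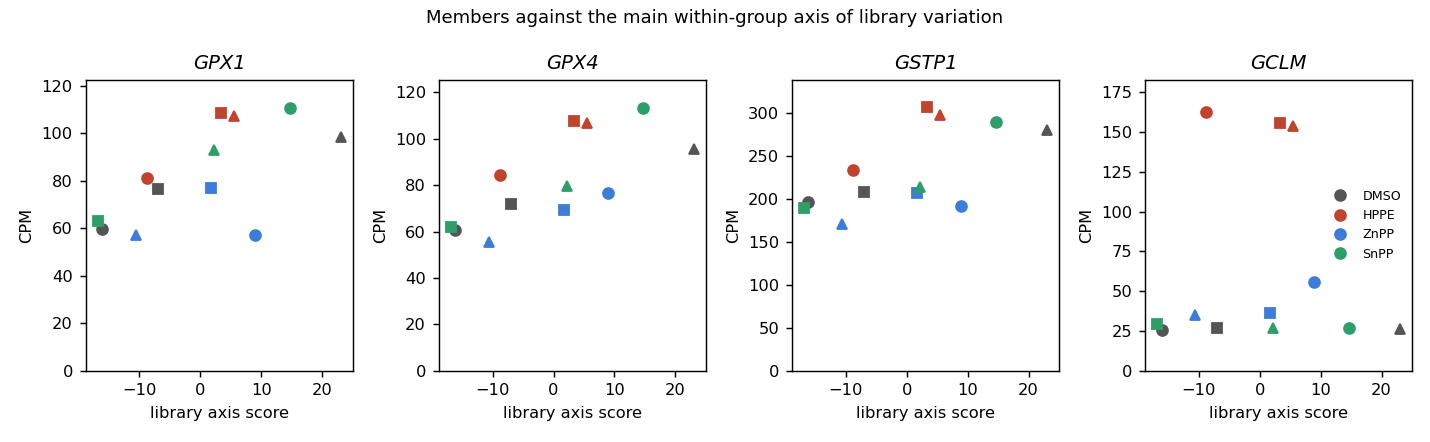
CPM of GPX1, GPX4, GSTP1 and GCLM (vertical axes, from 0) against the library axis score (horizontal axes); colours are groups, and circles, squares and triangles are replicates 1, 2 and 3. In the DMSO and tin groups GPX1, GPX4 and GSTP1 rise with the score, which runs from -16.9 in tin replicate 2 to 23.1 in DMSO replicate 3, while GCLM stays between 25.7 and 29.7 CPM.

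Other genes were taken from lists of carriers of the building blocks of glutathione, the methionine cycle, glutathione breakdown, peroxidases and transferases. Further lists held glutaredoxins and glyoxalases, glutathione export, ferroptosis genes outside the glutathione pathway, and selenoprotein synthesis. Of 96 such genes, 67 passed the filter. HPPE raised 4 of them, or 5.97%, against 2.57% of all genes, and 0 fell; at an unadjusted p under 0.05, 12 were higher and 2 lower. Their median log2 difference was 0.10. Each protoporphyrin raised 1, or 1.49%, and 0 fell. Those shares lie below the 1.84% of all genes called higher under zinc and the 1.9% under tin. At an unadjusted p under 0.05, 6 were higher and 5 lower under zinc, and 6 higher and 3 lower under tin. Of all 16366 genes, 2895 under HPPE, 3051 under zinc and 2410 under tin met that unadjusted limit in either direction. The lists were drawn up with earlier results of these data known.

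Export held the gene that every compound raised. ABCC3, a pump for glutathione and glucuronide conjugates, was at 11.2, 10.3 and 12.1 CPM under DMSO. It was at 53.4, 54.5 and 56.4 CPM under HPPE, 24.1, 17.8 and 20.5 CPM under zinc and 22.3, 20.6 and 25.3 CPM under tin. No treated library overlapped the controls. The log2 differences were 2.32 ± 0.13 (adjusted p = 3.81e-09), 0.86 ± 0.14 (0.00384) and 1.05 ± 0.13 (0.000183). HPPE stood above zinc by 1.46 ± 0.12 (adjusted p = 1.33e-06) and above tin by 1.27 ± 0.11 (2.20e-06), and zinc and tin differed by -0.19 ± 0.12 (adjusted p = 0.483). Leaving out DMSO replicate 2 brought the zinc difference to 0.79 (adjusted p = 0.0517); its call and those of the other 2 compounds held otherwise. ABCC1, a related pump, rose under HPPE from a mean of 165 to 203 CPM, by 0.29 ± 0.07 (adjusted p = 0.0293). That call was lost in 10 of 17 alternatives. Among them were leaving out DMSO replicate 1 (0.0849), DMSO replicate 2 (0.0943) or HPPE replicate 1, 2 or 3 (0.105, 0.135 and 0.0931). ABCC1 was at 178, 180 and 185 CPM under zinc and at 187, 197 and 195 CPM under tin. Each of these values lay above the control maximum of 172 CPM, though neither protoporphyrin gave a call.

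The list of ferroptosis genes held another. Of its 7 genes tested, 4 had a positive difference under HPPE, 1 was called higher and 0 lower. At an unadjusted p under 0.05, 2 were higher and 1 lower, where 2895 of all 16366 genes met that limit in either direction. GCH1, looked at here after its values were seen, was lower under HPPE without overlap but was not called. It was at 50.8, 49.9 and 53.0 CPM under DMSO and at 41.9, 42.2 and 43.4 CPM under HPPE. AIFM2, also called FSP1, which regenerates ubiquinol without glutathione, was at 5.56, 6.07 and 3.19 CPM under DMSO and at 12.3, 14.8 and 14.9 CPM under HPPE. The difference was 1.33 ± 0.22 on the log2 scale (2.52-fold, adjusted p = 0.00124), without overlap. Under zinc it was at 12, 6.67 and 8.30 CPM and under tin at 8.20, 6.07 and 9.04 CPM, and neither was called (adjusted p = 0.232 and 0.323). SLC1A5, a carrier of glutamine, which can be turned into glutamate, was the last of the 4. It rose under HPPE from a mean of 111 to 145 CPM, by 0.39 ± 0.08 (adjusted p = 0.0129). Its call was lost without DMSO replicate 1 (0.0561), DMSO replicate 2 (0.0876) or HPPE replicate 1, 2 or 3 (0.0508, 0.0580 and 0.0579). That of AIFM2 held in 17 of 17 alternatives. SLC1A5 was at 125, 127 and 128 CPM under tin, each above the control maximum of 113 CPM. It was at 132, 121 and 102 CPM under zinc, overlapping the controls, and neither protoporphyrin gave a call.

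The remaining lists gave no call under any compound against DMSO. Of the 8 breakdown genes tested, 8 had a positive difference under HPPE, with a median of 0.12 and 0 called. Tin was much the same, with 7 positive and a median of 0.11, while zinc had 4 positive and a median of 0.0013. CHAC1, the gene that heads this list, was at a mean of 4.85 CPM under HPPE and 4.58 CPM under DMSO (0.00 ± 0.33, adjusted p = 0.999). The 12 transferases tested other than GSTP1 had a median of 0.20, with 8 positive and 0 called. In the methionine cycle 9 genes were tested and 0 called. The glutaredoxins and glyoxalases gave 0 of 8 and the other peroxidases 0 of 2, with GLRX at 5.54 against 6.43 CPM (-0.21 ± 0.20, adjusted p = 0.619). Selenoprotein synthesis, on which GPX4 and GPX1 depend, gave 0 of 7, with SEPHS2 at 47.8 against 47.5 CPM (0.04 ± 0.12, adjusted p = 0.899).

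Between HPPE and zinc protoporphyrin, 9 of the 67 genes were higher under HPPE and 1 lower, or 13.4% higher against 6.44% of all genes, with 6.26% of all genes lower. The genes named for these pairs, other than ABCC3 and AIFM2, were chosen after their values were seen. MAT2A, which makes S-adenosylmethionine, was higher under HPPE than under zinc by 0.59 ± 0.14 on the log2 scale (adjusted p = 0.0182), and GSTA4, which detoxifies lipid aldehydes, by 0.69 ± 0.15 (adjusted p = 0.0139). MTR, methionine synthase, was the lower one at -0.41 ± 0.10 (adjusted p = 0.0188). Without HPPE replicate 2, HPPE replicate 3 or zinc replicate 3 these adjusted p-values were 0.0905, 0.0729 and 0.128 for MAT2A, 0.0759, 0.0597 and 0.105 for GSTA4, and 0.101, 0.0845 and 0.127 for MTR, and MAT2A was at 0.0552 without zinc replicate 2. Between HPPE and tin, where 0.745% of all genes were higher and 0.709% lower, 2 of the 67 were higher, ABCC3 and AIFM2, and 1 was lower, GCH1, which makes tetrahydrobiopterin (-0.37 ± 0.09, adjusted p = 0.0440). The GCH1 call was lost in 11 of 17 alternatives (adjusted p = 0.000147 to 0.222), among them leaving out any HPPE library or tin replicate 1 or 3. AIFM2, at 0.84 ± 0.19 above tin (adjusted p = 0.0294), was not called in 7 of 17, with 0.233 without HPPE replicate 2, 0.119 without HPPE replicate 3, 0.0902 without tin replicate 2 and 0.0517 without tin replicate 3. Between zinc and tin 0 were called in either direction. At an unadjusted p under 0.05, 6 were lower and 0 higher, where 2176 of all 16366 genes met that limit in either direction.

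Of 4 regulators, KEAP1 rose under HPPE and the others were not called. KEAP1 was at 73.4, 68.0 and 77.2 CPM under DMSO and at 89.3, 96.9 and 104 CPM under HPPE (0.42 ± 0.09, adjusted p = 0.0145). The call was lost without DMSO replicate 1 (0.0635), DMSO replicate 2 (0.127), HPPE replicate 2 (0.0795) or HPPE replicate 3 (0.0782). NFE2L2, which encodes NRF2, differed by 0.29 ± 0.10 (adjusted p = 0.109), BACH1, a repressor at antioxidant response elements, by 0.25 ± 0.12 (0.291) and ATF4 by 0.18 ± 0.23 (0.724). Under the protoporphyrins 0 of the 4 were called; ATF4 differed by -0.48 ± 0.25 under zinc (adjusted p = 0.305).

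The genes whose log2 CPM followed the members most closely over the 12 libraries were named by Pearson's r, as a description. For GCLM they were OSGIN1 (0.987), TXNRD1 (0.981) and ME1 (0.979), and for SLC7A11 OSGIN1 (0.982), ME1 (0.974) and P2RY6 (0.968). For GCLC they were SEMA6D (0.966), TKT (0.945) and ME1 (0.942). TXNRD1 encodes thioredoxin reductase, ME1 and TKT are enzymes of NADPH and pentose metabolism, SEMA6D is an axon guidance ligand and P2RY6 a nucleotide receptor. Under HPPE, OSGIN1 went from a mean of 6.00 to 73.7 CPM, ME1 from 25.5 to 62.1, P2RY6 from 13.9 to 45.8 and TKT from 234 to 333. SEMA6D went from 16.4 to 21.8 CPM and was not called (0.34 ± 0.12, adjusted p = 0.136).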

How the data were processed

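RNA was measured in 12 libraries of SH-SY5Y cells, 3 per group. The authors deposited whole-number counts per Ensembl gene; per the submitters' processing notes, fastp 0.21.1, STAR 2.7.7a and featureCounts were used with GRCh38. The annotation and strand setting used for counting are not given in the sources used here. Of 60710 identifiers, 60481 were matched to a symbol. In R 4.3.3, genes were filtered by filterByExpr of edgeR 4.0.16, which kept 16366 genes with 99.6% of all counts. Libraries were scaled by TMM and fitted with 1 mean per group and robust quasi-likelihood tests, and p-values were adjusted by Benjamini-Hochberg over all genes (threshold 0.05). The script was tested on simulated data. CPM was computed from the counts with TMM-scaled library sizes, and log2 CPM with a prior count of 2. Pathway genes were named where called against DMSO, or by heading a list without calls. GCH1 and those named between compounds were named after their values were seen, and the most similar genes as the 3 highest r. DESeq2 1.42.0, other scalings and filters, left-out libraries, a library axis and a replicate block were alternatives. Another was HPPE replicates 2 and 3 summed as 1 library. The members and lists were chosen with earlier results of these data known.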

Additional observations from a re-analysis of the deposited data

How the results depend on the processing

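Under HPPE, the calls of GCLM, GCLC, GSR and SLC7A11 against DMSO held in 17 of 17 alternatives. With the library axis in the fit, the genes called higher rose to 8 for HPPE against DMSO and to 7 for HPPE against tin, the genes called lower rose to 2 for zinc against DMSO, and zinc against tin gave 2 higher and 4 lower. Under that fit the shares of all genes were 8.85% and 8.29% higher in the HPPE comparisons, 11.7% lower in zinc against DMSO, and 7.46% higher and 6.9% lower in zinc against tin. Zinc against tin gave 1 higher without the filter on low counts and 0 to 1 with single libraries left out. For zinc against DMSO the count of genes called higher was 0 in the fit on those groups alone, 0 without both shallow libraries (an alternative chosen after seeing the data), and 0 to 1 with single libraries left out. For HPPE against zinc that range was 3 to 8. The replicate numbers did not pair the samples: of 18 same-numbered pairs, 5 had a correlation of deviations above 0.1, and 3 of 12 libraries were closest to their own number. With the replicate block, zinc against DMSO had 0 genes called higher, since GCLM had an adjusted p of 0.0640, and GSTP1 in HPPE against zinc had 0.0707.

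Of 891 alternative log2 differences, 822 kept direction and call, 33 passed the threshold newly, 21 no longer passed and 15 changed sign; none of these 15 was called. With single libraries left out, GSS ranged from -0.15 to 0.13 in HPPE against DMSO, from -0.14 to 0.14 in tin against DMSO and from -0.035 to 0.0125 in HPPE against tin, where it was 0.0015 with the library axis; in zinc against DMSO it was 0.0091 without both shallow libraries. In tin against DMSO, SLC3A2 ranged from -0.00028 to 0.19, GPX4 from -0.034 to 0.42 and GSTP1 from -0.15 to 0.20. SLC3A2 in zinc against DMSO ranged from -0.27 to 0.019, GPX1 in HPPE against tin from -0.052 to 0.33 and GSR in zinc against tin from -0.078 to 0.046. The cause of these changes was not tested. Depth limits SLC7A11 most of the 9 genes, with 13 to 75 counts in the control libraries.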
